A study of Mus musculus with 40 samples.

Results

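The genes described here are 10 matrix proteoglycans of the mouse mammary gland, 8 small leucine-rich proteoglycans (Dcn, Bgn, Aspn, Lum, Fmod, Prelp, Ogn and Podn) and 2 large ones (Vcan and Hspg2). They were taken by name after the Ensembl IDs of the count tables were mapped to mouse symbols, and all 10 were found among the 25044 genes of the adult table, the 24268 genes of the pubertal table and the 23180 genes that both hold. RNA sequencing was carried out on fibroblasts, adipocytes, basal cells and luminal cells of wildtype female FVB/N mice, at puberty and at the proestrus, estrus, metestrus and diestrus stages of the adult cycle. Each of the 20 combinations of cell type and stage had 2 libraries, 40 libraries in all. Each pubertal library came from a pool of 4 mice aged 34 to 36 days and each adult library from a pool of 2 or 3 virgin mice aged 14 to 16 weeks. The fibroblasts were the sorted stromal cells that lacked the epithelial surface proteins, with no positive marker in the sort, and the adipocytes were the floating fat fraction, which was not sorted.

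Proteoglycans are secreted proteins that carry sulfated sugar chains and make up much of the space between cells. The small leucine-rich members fold into a curved scaffold of repeats that binds collagen and sets the width and spacing of its fibrils, and several also hold growth factors of the TGF-beta family. Versican (Vcan) binds hyaluronan and forms swollen, hydrated matrix, and perlecan (Hspg2) carries heparan sulfate chains and is a standard part of the basement membrane that separates mammary epithelium from stroma.

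The adult libraries held 8991222 to 19082163 counts for fibroblasts and 13889631 to 21094651 for adipocytes, and those of basal cells held 12568238 to 20876762 and of luminal cells 16832957 to 22760563. The 8 pubertal libraries held 11774264 to 19033586 counts. Levels are given as CPM, counts relative to the library total with a scaling for composition over all 40 libraries, and comparisons between genes as CPM per kilobase of exon (RPKM). The defining markers were highest in the cell type of the label: the summed CPM of 10 fibroblast markers was 11550 to 101000 in fibroblasts and 2714 to 16640 in adipocytes, while basal cells had 26.1 to 90.8 and luminal cells 44.4 to 308. The summed CPM of 10 adipocyte markers was 246 to 791 in fibroblasts and 4738 to 22890 in adipocytes. The sorted fibroblasts also held 1326 to 2424 CPM of 8 basal markers, 1004 to 2674 CPM of 8 endothelial markers and 1124 to 1741 CPM of 6 pericyte markers. The adipocyte fraction held 534 to 2800 CPM of the endothelial markers, 345 to 1097 CPM of the pericyte markers and 420 to 1274 CPM of 8 leukocyte markers. In the adipocyte fraction all 10 fibroblast markers averaged over 1 CPM, and its second diestrus library had 3299 CPM of 8 basal markers and 1907 CPM of 8 epidermal markers, against medians of 324 and 27 over the adipocyte libraries. The part of other cells in the fibroblast and adipocyte values below was not tested. The pubertal and the adult libraries were sequenced in separate runs, so age and run cannot be told apart.

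Several of the genes are neighbours on their chromosomes (GRCm38, GENCODE M21 gene bounds). Dcn (ENSMUSG00000019929) lies at chr10:97479609-97518143 on the plus strand and Lum (ENSMUSG00000036446) at chr10:97565128-97572703 on the same strand, 47.0 kb further on, with Kera, the cornea proteoglycan keratocan, as the next gene. Aspn (ENSMUSG00000021388) at chr13:49544443-49567565 and Ogn (ENSMUSG00000021390) at chr13:49608046-49624501, both on the plus strand, belong to a run of related genes in the order Ecm2, Aspn, Omd and Ogn. Prelp (ENSMUSG00000041577) at chr1:133910304-133921414 on the minus strand and Fmod (ENSMUSG00000041559) at chr1:134037254-134048277 on the plus strand lie 115.8 kb apart. Bgn (ENSMUSG00000031375) lies at chrX:73483602-73495933 on the plus strand, Podn (ENSMUSG00000028600) at chr4:108014791-108096445 on the minus strand and Hspg2 (ENSMUSG00000028763) at chr4:137468769-137570630 on the plus strand. Vcan (ENSMUSG00000021614) lies at chr13:89655312-89742509 on the minus strand, next to Hapln1, which encodes a link protein that ties versican to hyaluronan. Cenpp lies on the opposite strand over Aspn, with which it shares exon sequence, and over Ogn. Its level was at most 0.756 CPM in fibroblasts and 1.60 CPM in adipocytes. In basal and luminal cells Cenpp reached 5.33 and 7.29 CPM (medians 0.604 and 1.11). Adult Aspn was at most 0.907 and 0.0918 CPM there, and adult Ogn at most 1.96 and 0.614 CPM. Whether counting used the strand of the reads is not given in the sources used here. The part of this overlap in the low epithelial values of Aspn and Ogn was not tested. Podn also overlaps Scp2 on the same strand without shared exons, and Scp2 stood at 30.1 to 49.4 CPM in fibroblasts and 265 to 853 CPM in adipocytes.

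Promoter windows of 250 bases before the RefSeq start site (GRCm38.p6) were held for 8 of the 10 genes, and those of Aspn, Ogn, Vcan and Hspg2 are shown. These genes differ in the comparisons of fibroblasts with adipocytes or of adult with pubertal cells, as do others whose windows are not shown. The windows shown run 5′ to 3′ on the strand of the gene, with the matches of the TATA box core TATAAA, the SP1 core GGGCGG and the TEAD core GGAATG, on either strand, in capitals. The Aspn window is chr13:49544193-49544442 and the Ogn window chr13:49607765-49608014, both on the plus strand. The Vcan window is chr13:89742513-89742762 on the minus strand and the Hspg2 window chr4:137468553-137468802 on the plus strand.
Aspn: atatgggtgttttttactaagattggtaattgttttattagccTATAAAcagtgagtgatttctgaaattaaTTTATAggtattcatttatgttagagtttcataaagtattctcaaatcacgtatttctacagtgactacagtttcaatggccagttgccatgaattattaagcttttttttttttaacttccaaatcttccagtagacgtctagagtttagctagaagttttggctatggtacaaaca
Ogn: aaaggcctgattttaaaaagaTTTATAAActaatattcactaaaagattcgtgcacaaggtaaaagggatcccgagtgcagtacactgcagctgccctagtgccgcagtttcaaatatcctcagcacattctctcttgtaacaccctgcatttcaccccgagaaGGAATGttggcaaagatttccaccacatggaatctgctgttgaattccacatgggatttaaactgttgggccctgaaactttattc
Vcan: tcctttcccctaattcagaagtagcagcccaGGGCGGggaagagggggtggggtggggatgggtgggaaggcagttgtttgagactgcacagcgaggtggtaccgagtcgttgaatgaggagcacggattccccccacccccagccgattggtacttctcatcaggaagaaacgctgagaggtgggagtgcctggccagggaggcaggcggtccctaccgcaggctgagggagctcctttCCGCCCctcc
Hspg2: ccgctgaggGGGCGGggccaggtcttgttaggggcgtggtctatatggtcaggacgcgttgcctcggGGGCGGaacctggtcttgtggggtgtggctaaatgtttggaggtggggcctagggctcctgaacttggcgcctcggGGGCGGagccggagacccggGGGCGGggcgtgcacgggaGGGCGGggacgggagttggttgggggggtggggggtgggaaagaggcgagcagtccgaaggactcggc

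The windows of Aspn and Ogn had 30% and 42% of G and C, and those of Vcan and Hspg2 62.4% and 70%. TATAAA, the core of the TATA box, was found in the windows of Aspn and Ogn and in 12.3% of 32536 different windows of all genes. In Aspn its matches lay at bases -207 to -202 and -178 to -173 from the start site. In Ogn its matches on the opposite strands overlap, at -229 to -224 and -227 to -222. GGGCGG, the core bound by SP1, was found in the windows of Bgn, Podn, Vcan and Hspg2 and in 33% of all windows. GGAATG, the core bound by TEAD factors, was found in the Ogn window and in 12.6% of all windows. CACCTG, an E-box read by ZEB and SNAI factors, was found in the other Podn window (chr4:108030987-108031236) and in 17.3% of all windows. TGANTCA, the AP-1 core, was found in no window of the 8 genes and in 6.73% of all windows. A match is a description of these letters and shows no binding.

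**Figure D1:**
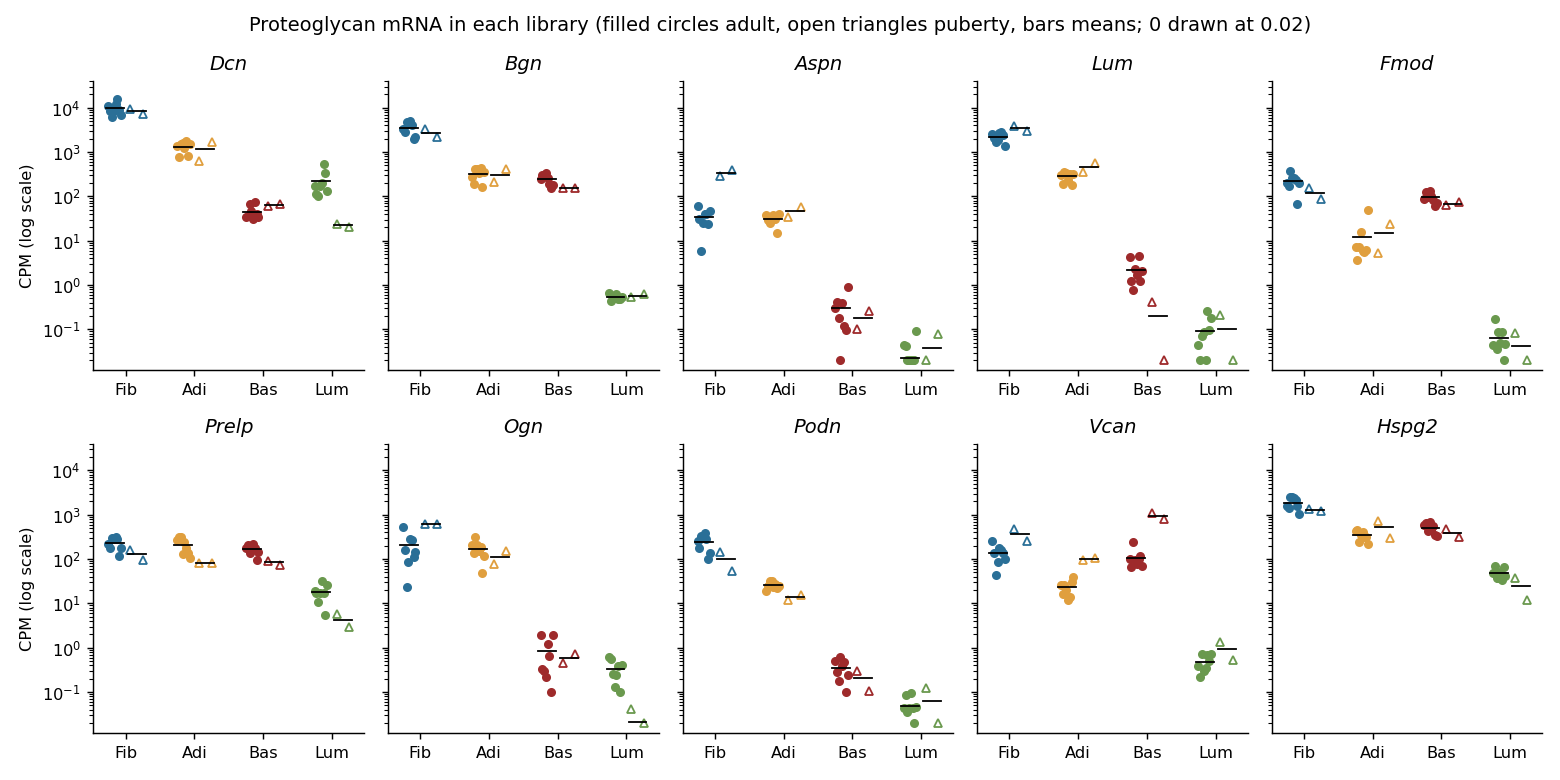
CPM of the 10 proteoglycans in each of the 40 libraries on a logarithmic axis, by cell type (Fib, fibroblasts; Adi, adipocytes; Bas, basal; Lum, luminal), with filled circles for adult libraries, open triangles for pubertal ones and bars for means. Dcn in adult fibroblasts stood at 6072 to 15480 CPM, while Aspn, Fmod, Lum and Podn were at or near 0 in luminal cells.

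Fibroblasts held the most proteoglycan RNA. The 10 genes took 1.12 to 2.33% of all counts in adult fibroblasts and 0.18 to 0.324% in adult adipocytes. In adult basal cells they took 0.0864 to 0.156%, against 0.0187 to 0.0697% in adult luminal cells. In these bulk libraries, fewer cells of a type and less RNA per cell cannot be told apart. The make-up of this RNA also differed between the cell types. Per exon length, adult fibroblasts carried 46.6% decorin, 25.1% lumican and 16.3% biglycan among a summed 3556 RPKM. Adult adipocytes had the same leading genes, with 39.7% Dcn and 20.3% Lum of 567 RPKM, followed by Ogn with 11.7% and Prelp with 10.4%. In adult basal cells Prelp (27.8%), Bgn (24.1%), Hspg2 (21%) and Fmod (17.1%) shared the first places of 167 RPKM, and Dcn was 4.65%. In adult luminal cells decorin alone was 81.2% of 46.2 RPKM, with 10.8% Prelp and 7.29% Hspg2. Lengths were taken over all annotated exons. With the longest transcript instead, Bgn moved above Lum in adult fibroblasts, at 1329 against 893 RPKM. Bgn then also passed Lum in adult adipocytes, at 121 against 115 RPKM, and Prelp in adult basal cells, at 92.3 against 46.6 RPKM.

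**Figure D2:**
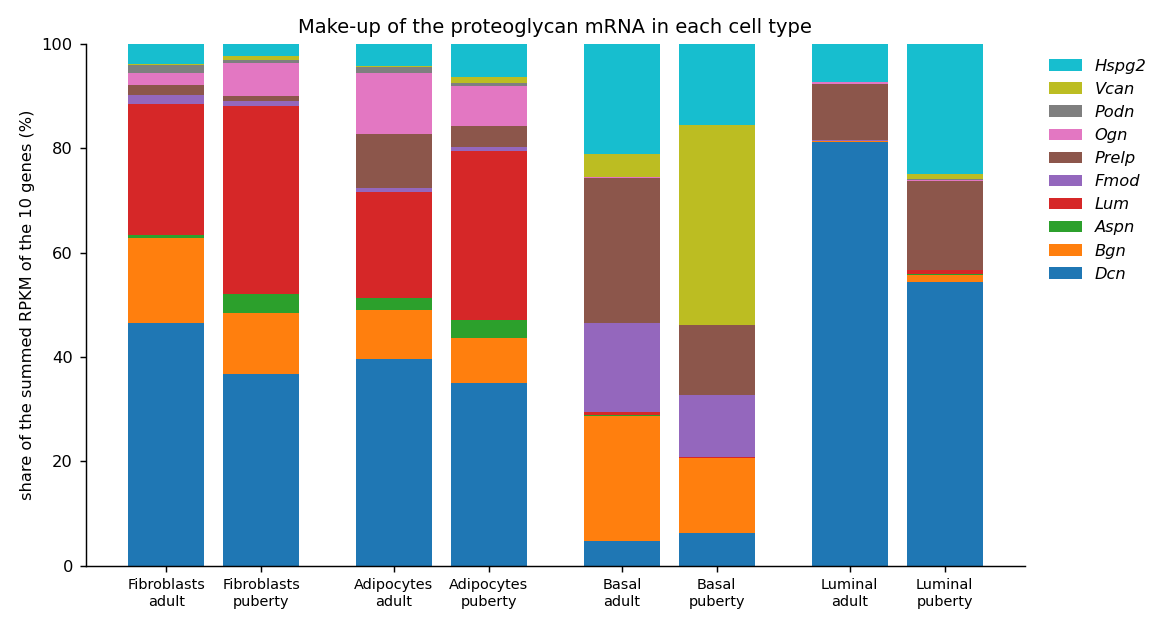
Share of the summed RPKM of the 10 proteoglycans held by each gene, in percent, for each cell type with the adult bar beside the pubertal bar. Decorin was 46.6% in adult fibroblasts and 81.2% in adult luminal cells, and versican was 4.49% in adult and 38.2% in pubertal basal cells.

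All 10 proteoglycans were higher in adult stroma, taken as the mean of fibroblasts and adipocytes, than in adult epithelium, taken as the mean of basal and luminal cells. The background is high, since 41.5% of the 15077 genes tested were called higher in stroma and 40.2% lower (edgeR quasi-likelihood test, adjusted p under 0.05). The median log2 fold change of the 10 genes was 5.85, beside 0.02 over all genes tested. It ranged between 1.98 ± 0.17 (SE) for Prelp and 10.82 ± 0.28 for Lum, with Podn at 9.17, Aspn at 8.81, Ogn at 8.39, Bgn at 6.50, Dcn at 5.20, Fmod at 4.22, Vcan at 2.89 and Hspg2 at 2.35. These are 8 adult libraries of each cell type, and all adjusted p were 9.7e-10 or smaller.

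Decorin, biglycan and asporin form the first class of small leucine-rich proteoglycans. Decorin binds collagen and TGF-beta. Dcn had a lowest, median and highest value of 6072, 8833 and 15480 CPM in adult fibroblasts, against 756, 1422 and 1759 CPM in adult adipocytes. It stood at 30.8, 38.9 and 73.0 CPM in adult basal cells, against 103, 170 and 527 CPM in adult luminal cells. The order of the levels was therefore fibroblasts, adipocytes, luminal cells and basal cells, with no overlap between neighbours. Fibroblasts exceeded adipocytes by 2.85 ± 0.26 on the log2 scale (adjusted p = 3.2e-09), and Dcn was lower in basal than in luminal cells by a log2 fold change of -2.17 ± 0.25 (adjusted p = 1.4e-07).

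Biglycan, a close relative of decorin on the X chromosome, split the epithelium the other way. Bgn had 1946, 3608 and 5074 CPM (lowest, median and highest) in adult fibroblasts, against 162, 346 and 428 CPM in adult adipocytes. It had 151, 256 and 341 CPM in adult basal cells, against 0.428, 0.511 and 0.658 CPM in adult luminal cells, where each library held only 10 to 15 reads of it. The ranges of adipocytes and basal cells overlapped, and all others were apart. The log2 fold change was 3.42 ± 0.15 for fibroblasts over adipocytes (adjusted p = 6.1e-14) and 8.80 ± 0.21 for basal over luminal cells (adjusted p = 3.8e-18). From pooled reads the basal level was 463 times the luminal level, with an exact 95% counting interval of 380 to 572. Such intervals cover counting error only.

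Asporin, which lacks the sugar chains of its relatives, was a stromal gene that did not separate the stromal cell types in adults. Aspn had 5.93, 35.5 and 61.6 CPM in adult fibroblasts and 15.1, 32.0 and 40.6 CPM in adult adipocytes, with a log2 fold change of 0.03 ± 0.29 (adjusted p = 0.94). It was at most 0.907 CPM in adult basal cells and at most 0.0918 CPM in adult luminal cells, from at most 15 and at most 2 reads in a library. Basal cells were called higher than luminal cells (log2 fold change 3.70 ± 1.19, adjusted p = 0.0092), although both reached 0. That call was lost without the first basal estrus library, as the other estrus library held 0 reads.

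Lumican, fibromodulin and Prelp make up the second class. Lumican and fibromodulin bind the same region of collagen, and Prelp has a basic start that binds heparan sulfate. Lum had 1379, 2211 and 2849 CPM in adult fibroblasts, against 183, 307 and 363 CPM in adult adipocytes. It had 0.776, 1.86 and 4.42 CPM in adult basal cells, against 0, 0.0792 and 0.26 CPM in adult luminal cells. None of these ranges overlapped, and Lum had the widest span of the 10 genes, with a fibroblast level 23261 times the luminal level from pooled reads (interval 14528 to 39930).

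Fibromodulin, unlike lumican, was well expressed in basal cells. Fmod had 66.4, 220 and 379 CPM in adult fibroblasts, against 3.75, 6.55 and 48.6 CPM in adult adipocytes. It had 61.1, 91.9 and 131 CPM in adult basal cells, against 0, 0.0473 and 0.171 CPM in adult luminal cells. The lowest basal library therefore exceeded every adipocyte library, and basal and fibroblast libraries overlapped. The log2 fold change was 4.44 ± 0.34 for fibroblasts over adipocytes (adjusted p = 2e-10) and 10.47 ± 0.53 for basal over luminal cells (adjusted p = 3.7e-13). From pooled reads, 13499 against 12, the basal level was 1442 times the luminal level (interval 825 to 2791). The highest adipocyte value, 48.6 CPM, was that of the library with the high basal and epidermal markers, and the other 7 adult adipocyte libraries reached 15.3 CPM.

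Prelp had the smallest difference between stroma and epithelium of the 10 genes. It had 116, 252 and 314 CPM in adult fibroblasts, 105, 211 and 318 CPM in adult adipocytes and 95.8 to 224 CPM in adult basal cells, all overlapping, and 5.39 to 32.1 CPM in adult luminal cells. Fibroblasts and adipocytes differed by 0.15 ± 0.23 on the log2 scale (adjusted p = 0.56), while basal cells exceeded luminal cells by 3.23 ± 0.26 (adjusted p = 3.8e-10).

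Osteoglycin, the third-class member also called mimecan, also had no call between the stromal cell types in adults. Ogn had 23.4, 152 and 536 CPM in adult fibroblasts and 49.2, 171 and 308 CPM in adult adipocytes (log2 fold change 0.04 ± 0.32, adjusted p = 0.92). It had 0.098 to 1.96 CPM in adult basal cells and 0.0981 to 0.614 CPM in adult luminal cells, and was the only gene of the 10 with no call between adult basal and luminal cells by edgeR's quasi-likelihood test (log2 fold change 1.16 ± 0.67, adjusted p = 0.12). It was called by DESeq2 (adjusted p = 0.031), by edgeR with no filter on low counts (0.021) and without the first basal diestrus library (0.047). Podocan, a fifth-class member known for slowing smooth muscle growth, was higher in fibroblasts. Podn had 101, 272 and 395 CPM in adult fibroblasts, against 18.7, 24.9 and 32.2 CPM in adult adipocytes (log2 fold change 3.16 ± 0.13, adjusted p = 3.4e-14). It was at most 0.617 CPM in adult basal cells and 0.0975 CPM in adult luminal cells.

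Both large proteoglycans were also expressed in basal cells. Vcan had 43.3, 136 and 262 CPM in adult fibroblasts, against 11.8, 23.1 and 38.9 CPM in adult adipocytes. It had 66.3, 97.3 and 244 CPM in adult basal cells, against 0.214, 0.442 and 0.735 CPM in adult luminal cells. Fibroblasts and basal cells overlapped, and every basal library exceeded every adipocyte library. The log2 fold change was 2.56 ± 0.22 for fibroblasts over adipocytes (adjusted p = 1.6e-09) and 7.75 ± 0.31 for basal over luminal cells (adjusted p = 7.8e-15). Hspg2 was detected in every library of every cell type. It had 1027, 1843 and 2512 CPM in adult fibroblasts, against 223, 329 and 455 CPM in adult adipocytes, and 330, 505 and 685 CPM in adult basal cells, against 34.5, 44 and 70.2 CPM in adult luminal cells. Basal cells and adipocytes overlapped. The log2 fold change was 2.44 ± 0.15 for fibroblasts over adipocytes (adjusted p = 6.7e-12) and 3.37 ± 0.15 for basal over luminal cells (adjusted p = 7.3e-14).

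Counted together, 7 of the 10 genes were higher in adult fibroblasts than in adipocytes and none was lower, beside 39.1% of all genes called higher and 39.2% called lower. The exceptions were Aspn, Prelp and Ogn. The members' median log2 fold change was 2.71, beside -0.02 over all genes. The summed fibroblast markers had medians of 29960 CPM in fibroblasts and 4715 CPM in adipocytes over all stages, and moved in the same direction. Of the 10 genes, 8 were higher in adult basal than in luminal cells and Dcn was lower, beside 38.3% of all genes called higher and 35.3% called lower, with a median log2 fold change of 3.53 for the members and 0.04 over all genes.

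**Figure D3:**
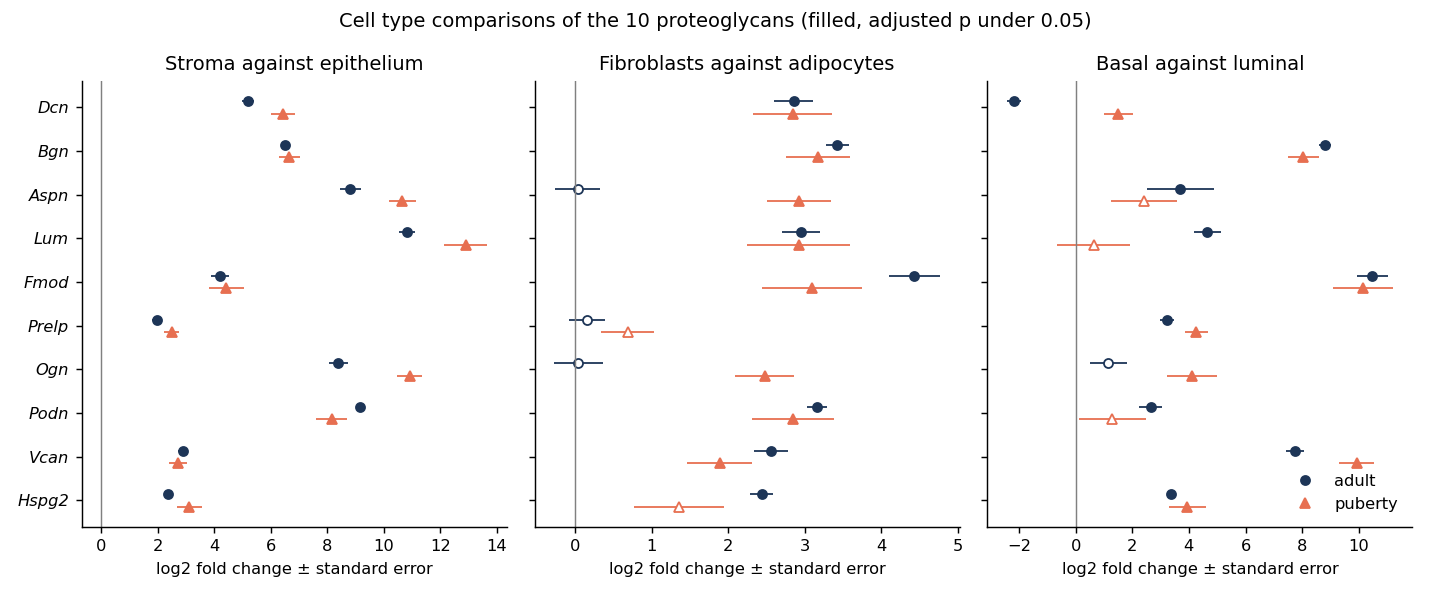
Log2 fold change ± standard error of the 10 proteoglycans in the cell type comparisons, with filled points for an adjusted p under 0.05. In adults all 10 were higher in stroma, Aspn, Prelp and Ogn lay at 0.03 to 0.15 in fibroblasts over adipocytes, and Dcn alone was below 0 in basal over luminal cells, at -2.17.

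The pubertal libraries, with 2 per cell type, were compared in the same way. All 10 genes were higher in pubertal stroma than in epithelium, beside 3900 of 14263 genes called higher and 2700 lower (46.3% in either direction). In pubertal fibroblasts against adipocytes 8 of the 10 were higher, beside 1614 of 14263 genes called higher and 2430 lower (28.4% in either direction). Aspn and Ogn were among them: Aspn had 283 and 402 CPM in pubertal fibroblasts, against 35.1 and 57.1 CPM in pubertal adipocytes (log2 fold change 2.92 ± 0.42, adjusted p = 0.0023). Ogn had 632 and 616 CPM in pubertal fibroblasts, against 78.4 and 150 CPM in pubertal adipocytes (log2 fold change 2.48 ± 0.39, adjusted p = 0.003). Prelp (0.68 ± 0.35, adjusted p = 0.17) and Hspg2 (1.35 ± 0.59, adjusted p = 0.12) were not called. With the replicate number as a block, Hspg2 was called (log2 fold change 1.53, adjusted p = 0.021), as it was by DESeq2 (0.038). The first pubertal fibroblast and adipocyte libraries came from the same mice and the second ones from different mice. The calls of Fmod, Podn and Vcan were lost without the first pubertal fibroblast library and that of Lum without either of them.

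In pubertal basal against luminal cells 7 of the 10 were higher, beside 2697 of 14263 genes called higher and 2612 lower (37.2% in either direction). Dcn was among them, with 59.8 and 67.5 CPM in pubertal basal cells, against 24.5 and 20.1 CPM in pubertal luminal cells (log2 fold change 1.51 ± 0.50, adjusted p = 0.044). Its sign was the opposite of that in adults, a change whose test was not run, and the call was lost in 6 of the 8 fits that left out a library, with an adjusted p of up to 0.17, and with edgeR's newer quasi-likelihood method. Aspn, Lum and Podn, with at most 8 reads in a pubertal library of either cell type, were not called. The call of Ogn also rested on few reads, 23 pooled in pubertal basal cells against 1 in luminal cells (ratio 21.9, interval 3.55 to 901).

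Against puberty, 4 proteoglycans were lower in adult fibroblasts and 1 was higher, beside 18.9% of all genes called. Aspn had the largest change. It had 5.93, 35.5 and 61.6 CPM in the 8 adult fibroblast libraries, against 283 and 402 CPM in the pubertal ones. The groups were far apart, and the log2 fold change was -3.53 ± 0.38 (adjusted p = 0.0024). The call held without any 1 library, with an adjusted p of at most 0.039.

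Ogn had 23.4, 152 and 536 CPM in adult fibroblasts, against 632 and 616 CPM at puberty, and fell by 2.03 ± 0.43 on the log2 scale (adjusted p = 0.013). Vcan had 43.3, 136 and 262 CPM in adult fibroblasts, against 486 and 261 CPM at puberty, so that the first proestrus library reached the lower pubertal one, and its log2 fold change was -1.65 ± 0.30 (adjusted p = 0.0088). Both calls were lost without either pubertal library (adjusted p up to 0.11).

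Lum had 1379, 2211 and 2849 CPM in adult fibroblasts, against 3774 and 3039 CPM at puberty (log2 fold change -0.76 ± 0.22, adjusted p = 0.041). Podn had 101, 272 and 395 CPM in adult fibroblasts, against 144 and 54 CPM at puberty, which overlap (log2 fold change 1.11 ± 0.34, adjusted p = 0.047). The Lum call was lost in the joint fit of 40 libraries (adjusted p = 0.24) and without any 1 of 7 of the 10 libraries (adjusted p up to 0.26), and that of Podn without any 1 of 8 (up to 0.30). Dcn, the most abundant of the 10, was 9682 ± 3077 CPM (SD, n = 8) in adult and 8303 ± 1515 CPM (SD, n = 2) in pubertal fibroblasts and was not called (adjusted p = 0.84). The collagens and partners of collagen fibrils moved with the 4 lower genes, 11 of 16 lower and 1 higher with a median log2 fold change of -1.08, and the summed fibroblast markers were 11550 to 38200 CPM in adult libraries, against 101000 and 72100 CPM at puberty. The part of a different mix of stromal cells was not tested.

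**Figure D4:**
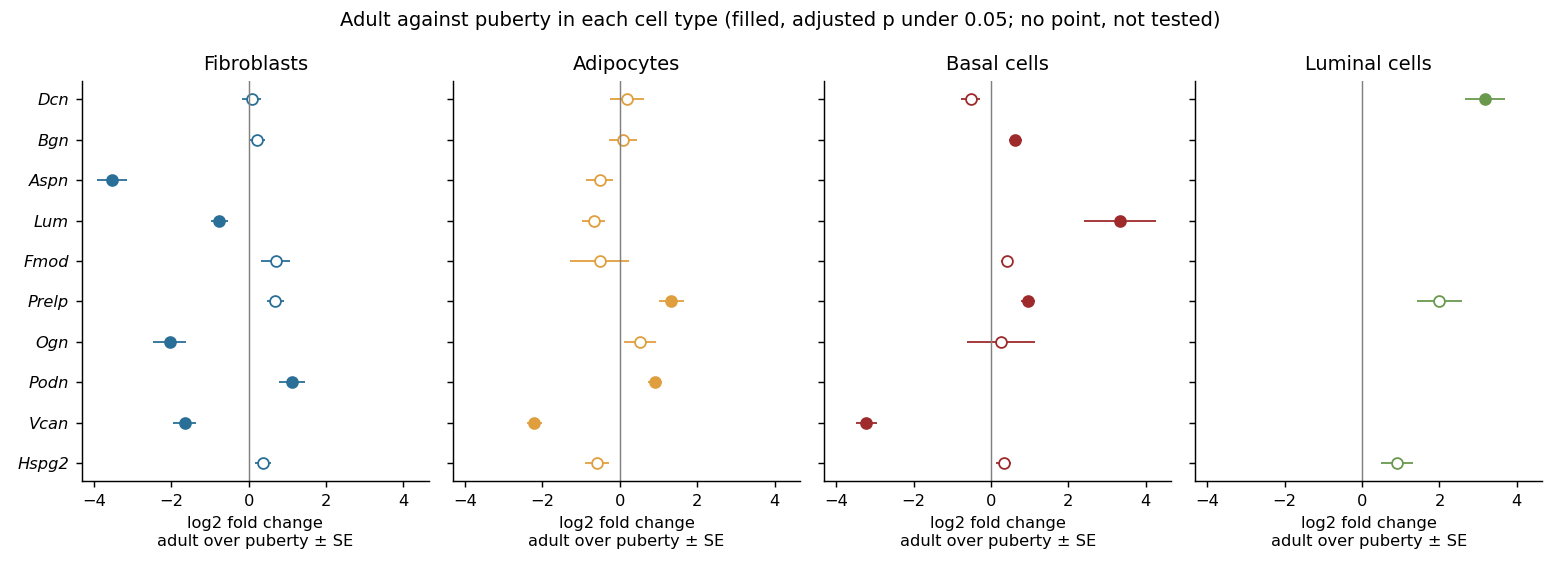
Log2 fold change ± standard error of adult over pubertal libraries in each cell type, with filled points for an adjusted p under 0.05 and no point for a gene that was not tested. In fibroblasts Aspn lay at -3.53, in basal cells Vcan at -3.22 and in luminal cells Dcn at 3.18.

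In adipocytes 3 genes were called between adult and puberty, beside 12.3% of all genes. Vcan had 11.8, 23.1 and 38.9 CPM in adult adipocytes, against 97.3 and 108 CPM at puberty, with no overlap (log2 fold change -2.21 ± 0.19, adjusted p = 0.0067). Prelp had 105, 211 and 318 CPM in adult adipocytes, against 83 and 81.6 CPM at puberty (log2 fold change 1.33 ± 0.32, adjusted p = 0.042). Podn had 18.7, 24.9 and 32.2 CPM in adult adipocytes, against 12.1 and 15.9 CPM at puberty (log2 fold change 0.91 ± 0.17, adjusted p = 0.026). Without the first pubertal library none of the 3 was called, with an adjusted p of 0.052 for Vcan. The Prelp call was lost in 7 of the 10 fits that left out a library (adjusted p up to 0.15) and in the fit blocked on the replicate number (0.056), and the Podn call in 5 of the 10 (up to 0.11). The fibroblast markers summed to 2714 to 5378 CPM in adult adipocyte libraries, against 8901 and 16640 CPM at puberty.

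The change of Aspn and Ogn with age differed between the stromal cell types. For Aspn the log2 fold change of adult over puberty was -3.53 in fibroblasts and -0.52 in adipocytes, and the difference between the changes, fitted over all 40 libraries, was -2.86 ± 0.63 (adjusted p = 0.0057). For Ogn it was -2.03 in fibroblasts and 0.52 in adipocytes, with a difference of -2.41 ± 0.71 (adjusted p = 0.028). Over all genes 13% were called for this difference, and the median difference was 0.17. The difference for Ogn lost its call without either pubertal fibroblast library or the first pubertal adipocyte library (adjusted p up to 0.15), and that for Aspn kept it in each fit that left out a library (up to 0.047). No other member was called.

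Versican had the largest change in basal cells, where 8 of the 10 genes passed the filter on low counts and 4 were called, beside 49.3% of all genes. Vcan had 66.3, 97.3 and 244 CPM in adult basal cells, against 1111 and 809 CPM at puberty. The lowest pubertal library stood above the highest adult one, and the log2 fold change was -3.22 ± 0.28 (adjusted p = 1.5e-05). Vcan was thus the leading proteoglycan of pubertal basal cells per exon length, at 38.2% of the summed 174 RPKM. The pubertal basal libraries also had more epidermal marker RNA, 115 and 197 CPM against 3.96 to 7.44 CPM in adults in the sum of 8 markers, while their fibroblast markers of 39.5 and 39.8 CPM lay within the adult 26.1 to 90.8 CPM.

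Prelp had 95.8 to 224 CPM in adult basal cells, against 92.7 and 75 CPM at puberty (log2 fold change 0.96 ± 0.19, adjusted p = 0.0019). Bgn had 151, 256 and 341 CPM in adult basal cells, against 152 and 154 CPM at puberty, with the lower diestrus library below both (log2 fold change 0.64 ± 0.16, adjusted p = 0.0067). Lum had 0.776 to 4.42 CPM in adult basal cells, against 0.409 and 0 CPM at puberty (log2 fold change 3.33 ± 0.92, adjusted p = 0.013). The Prelp call was lost in the joint fit of 40 libraries (log2 fold change 0.98, adjusted p = 0.054). The Bgn call was lost without either pubertal library and the Lum call without the second one. Among the basement membrane partners of perlecan, 6 of 12 were lower in adult basal cells and 2 were higher, while Hspg2 itself was not called (log2 fold change 0.33 ± 0.19, adjusted p = 0.17).

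In luminal cells only Dcn, Prelp and Hspg2 passed the filter, and Dcn was the 1 gene called, beside 10.8% of all genes. Dcn had 103, 170 and 527 CPM in adult luminal cells, against 24.5 and 20.1 CPM at puberty. Every adult library was above both pubertal ones, and the log2 fold change was 3.18 ± 0.52 (adjusted p = 0.0052, and at most 0.047 without any 1 library). The 10 fibroblast markers summed to 44.4 to 308 CPM in adult luminal cells, against 135 and 221 CPM at puberty, and 8 of the 10 averaged under 1 CPM over the 10 luminal libraries. Col6a3, a collagen chain, carried most of the sum, with 122 CPM in adult and 171 CPM in pubertal luminal cells. The part of fibroblast RNA in the luminal Dcn level was not tested. Prelp averaged 4.17 times its pubertal level in adult luminal cells (log2 fold change 2 ± 0.58, adjusted p = 0.058), which did not pass the threshold of edgeR's quasi-likelihood test. It was called by DESeq2 (adjusted p = 0.00058), in the joint fit of 40 libraries (0.0034) and with no filter on low counts (2.4e-05).

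Between the 4 stages of the adult cycle, no proteoglycan was called in any pair of stages by edgeR's quasi-likelihood test, fitted within each cell type with the filter on low counts. Of all genes, 0% were called in fibroblasts and 0.0801% in adipocytes, and 0.0247% of those tested in basal cells and 0.309% in luminal cells. At an unadjusted p under 0.05 in at least 1 pair, 10 of 10 members were listed in fibroblasts, beside 6132 of 13068 genes, and 6 of 10 in adipocytes, beside 6670 of 13726 genes. In basal cells 5 of 8 members were listed, beside 5200 of 12122 genes, and in luminal cells 2 of 3, beside 3868 of 12306 genes. DESeq2 called 8 members in fibroblasts, beside 2217 of 13068 genes, and 4 in adipocytes, beside 3343 of 13726. It called 3 members in basal cells, beside 1023 of 12122 genes, and 0 in luminal cells, beside 551 of 12306. Other edgeR fits also had calls. The joint fit of 32 adult libraries called 5 members in fibroblasts, beside 3202 genes, and 2 in adipocytes, beside 3544 genes. With no filter, edgeR called 9 members in fibroblasts, beside 3356 genes, and 0 in adipocytes, beside 243. It then called 6 in basal cells, beside 2131 genes, and 3 in luminal cells, beside 1845.

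The values of the fibroblast libraries by stage are given here as a description. Podn had 255 and 177 CPM in proestrus, 331 and 296 CPM in estrus, 395 and 289 CPM in metestrus, and 101 and 136 CPM in diestrus. Bgn had 3229 and 2766 CPM in proestrus, 4822 and 4307 CPM in estrus, 5074 and 3987 CPM in metestrus, and 1946 and 2216 CPM in diestrus. In both genes the diestrus libraries were below those of every other stage. The summed fibroblast markers were also lowest there, at 20380 and 11550 CPM in diestrus, against 24770 to 38200 CPM in the other adult stages, and their part in these values was not tested. Diestrus minus estrus was -1.29 ± 0.27 for Podn and -1.02 ± 0.25 for Bgn on the log2 scale, each with an adjusted p of 0.089. Prelp (116 and 174 CPM in diestrus, against 296 and 280 CPM in estrus) and Hspg2 (1545 and 1027 CPM in diestrus, against 2512 and 2502 CPM in estrus) were also lower in diestrus by their means, with adjusted p of 0.092 and 0.11, although 1 Hspg2 library in diestrus was above 1 in proestrus. Fmod was highest in estrus, at 379 and 263 CPM, and had 66.4 and 203 CPM in diestrus.

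Ogn, Vcan and Aspn had their lowest means in estrus. The endothelial markers summed to 2601 and 2674 CPM in the estrus fibroblast libraries, against 1004 and 1178 CPM in metestrus, and their part was not tested. Ogn had 536 and 158 CPM in proestrus, 23.4 and 87.8 CPM in estrus, 291 and 274 CPM in metestrus, and 110 and 145 CPM in diestrus. Vcan had 262 and 138 CPM in proestrus, 43.3 and 87.7 CPM in estrus, 174 and 159 CPM in metestrus, and 135 and 103 CPM in diestrus. The estrus libraries of both genes were below those of every other stage. Metestrus minus estrus was 2.44 ± 0.67 for Ogn and 1.44 ± 0.39 for Vcan on the log2 scale, with an adjusted p of 0.11 each. Aspn had 5.93 and 24.7 CPM in estrus and 39.7 CPM in each of the metestrus libraries. The first estrus library was the shallowest of the 40, with 8991222 counts, and had the lower value of the 3 genes. Without the second estrus library, estrus had only that shallowest library and the spread came from the other stages alone. No calls are drawn from that fit. Dcn and Lum were highest in metestrus, at 12260 and 15480 CPM and at 2719 and 2849 CPM.

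**Figure D5:**
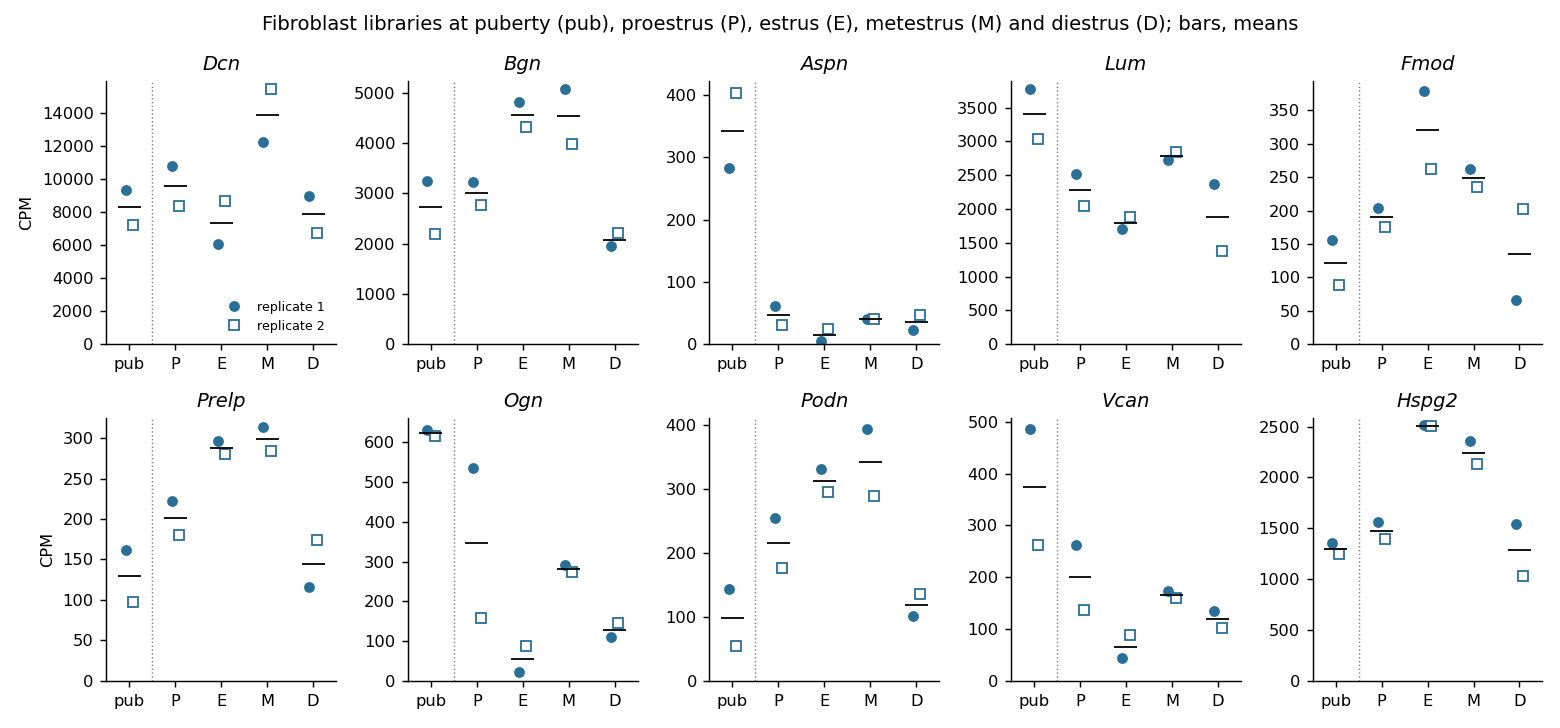
CPM of each proteoglycan in the 10 fibroblast libraries on linear axes, by stage (pub for puberty, P, E, M and D for the 4 stages of the cycle by their first letters), with a point for each library and a bar for the mean of 2. Bgn, Fmod, Prelp, Podn and Hspg2 had their highest adult means in estrus or metestrus, while Ogn, Vcan and Aspn had their lowest means in estrus, at 23.4 and 87.8 CPM for Ogn.

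For adipocytes and basal cells the smallest adjusted p of a member was close to that in fibroblasts. In adipocytes Ogn had 49.2 and 120 CPM in diestrus, against 308 and 204 CPM in estrus (log2 fold change -1.67 ± 0.46, adjusted p = 0.09), the opposite end of the order in fibroblasts. Vcan had 30.1 and 38.9 CPM in adipocytes in diestrus, against 11.8 and 13.9 CPM in metestrus (log2 fold change 1.39 ± 0.28, adjusted p = 0.09). The first diestrus adipocyte library had the highest sum of 10 luminal markers in the fraction, 1913 CPM against a median of 432. The second had 3299 CPM of 8 basal markers, against a median of 324. The part of epithelial RNA in these Vcan values was not tested. In basal cells Bgn had 151 and 181 CPM in diestrus, against 285 and 341 CPM in estrus (log2 fold change -0.92 ± 0.20, adjusted p = 0.11), the same direction as in fibroblasts. Luminal Dcn had 169 and 112 CPM in proestrus, 103 and 172 CPM in estrus, 203 and 527 CPM in metestrus, and 335 and 131 CPM in diestrus, so that the libraries of a stage differed as much as the stages did.

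Genes that work with the proteoglycans were counted in lists chosen with earlier results of these data known. Their named genes are those with the smallest adjusted p of each list. In adult stroma against epithelium, where the background was 41.5% higher and 40.2% lower, 15 of 16 collagens and fibril partners were higher and none was lower, with a median log2 fold change of 6.64. Dpt, dermatopontin, a decorin-binding protein, was at 12.18 ± 0.19, and the collagen V chains Col5a1 and Col5a2 were at 6.33 and 6.80. The other small leucine-rich proteoglycans that passed the filter were 5 of 7 higher and 1 lower, among them Ecm2 (6.67), Omd (8.51) and Tsku (2.25). Ecm2 and Omd are the genes beside Aspn on chromosome 13.

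The list of proteoglycan-cleaving proteases had 10 of 11 higher and none lower. Adamts4, an aggrecanase that also cuts versican, was at 5.56, while Pcolce (4.92) and Pcolce2 (11.08) are not proteases but enhancers of procollagen cleavage. Of the basement membrane partners of perlecan, 9 of 12 were higher and 3 lower, with the laminin chain Lama2 at 10.34 and the nidogens Nid1 and Nid2 at 5.98 and 6.09. Of the other matrix and cell surface proteoglycans, 12 of 23 were higher and 9 lower. Cspg4 (NG2), a pericyte proteoglycan, was at 7.91, the glypican Gpc3 at 7.12 and serglycin, Srgn, which is stored in granules of blood cells, at 6.33.

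The enzymes that build the sugar chains were less one-sided. Of the chondroitin and dermatan sulfate enzymes, 14 of 22 were higher and 5 lower, with Chst15, Csgalnact1 (5.47) and Ust (2.87) as those of smallest adjusted p. Of the heparan sulfate enzymes, 10 of 18 were higher and 7 lower, with heparanase, Hpse, at 6.12, the sulfatase Sulf1 at 2.54 and the sulfotransferase Hs2st1 at -0.87. In the hyaluronan list, 4 of 12 were higher and 5 lower. It included Tnfaip6, which transfers heavy chains onto hyaluronan, at 8.06, the synthase Has1 at 5.78 and the hyaluronidase Hyal3 at -2.05.

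Across the means of the 20 combinations of cell type and stage, the closest pairs among the 10 genes by Pearson correlation of log2 CPM were Aspn and Ogn (0.98), Lum and Podn (0.98) and Bgn and Hspg2 (0.98), and the least alike were Dcn and Vcan (0.30). These correlations are descriptions that mostly follow the 4 cell types. Among 10661 other genes, the closest to Lum was Lama2 (0.999), to Bgn the collagenase gene Mmp2 (0.998), to Podn Tmem119 (0.997), to Fmod the gene of the membrane protein podoplanin, Pdpn (0.991), and to Ogn Zeb2 (0.989), followed by its relative Zeb1 (0.989). Aspn was close to Igf1 (0.975), the gene of insulin-like growth factor. Hspg2 was closest to Ltbp4 (0.987), Dcn to Spon1 (0.981) and Vcan to Sema5a (0.974).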

How the data were processed

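RNA of sorted cells and of the fat fraction was sequenced after polyA selection, and the authors mapped the reads with TopHat2 2.1 and Bowtie 1.1.0 to GRCm 38 and counted them with HTSeq. The deposited values are raw counts per Ensembl gene, in 1 table for the adult and 1 for the pubertal libraries. The authors also deposited log2 values of counts scaled to a common library total plus 1, which were not used. Library columns were matched to samples by their labels, and symbols came from GENCODE M21. The members and all lists were chosen with earlier results of these data known. Each comparison was fitted across all genes over 1 CPM in at least 2 libraries with edgeR 4.0.16 (TMM, quasi-likelihood F-test, R 4.3.3, limma 3.58.1) with Benjamini-Hochberg adjustment. A gene was called at an adjusted p under 0.05. Cell types were compared over all adult or all pubertal libraries, ages and stages within a cell type. P-values measure the spread between pools of mice. According to the paper, the adult pools of a stage were early (1) or late (2) where that was clear, and otherwise set by cell number. That difference is part of the spread. The 4 cell types of an adult pool came from the same mice: their deviations from group means correlated at -0.082 to 0.296 over 24 pairs (median 0.083). At puberty, libraries with the same number came from the same mice, except the second adipocyte library, whose mice were those of another day (0.078 to 0.26 over 6 pairs). A fit with the pool or number as a block changed no count of members called between adult cell types and 1 between pubertal ones. Alternatives were DESeq2 1.42.0, other scaling, no filter, joint fits, blocks and leaving out each library. All 10 genes are named; of each list the 3 genes of smallest adjusted p, and for likeness the closest genes, of which those of Aspn and Prelp are not reported here. The fits were tested on simulated data.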

Additional observations from a re-analysis of the deposited data

Results flagged for a closer look

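Of 40 tests for a library far from the other 7 of its cell type in adults, 3 passed, and about 1 in 20 does so by chance. Fmod in the second diestrus adipocyte library was 48.6 CPM, with the next value at 15.3 CPM, in the library with 3299 CPM of basal and 1907 CPM of epidermal markers. Vcan in the first estrus basal library was 244 CPM, with the next at 118 CPM. Aspn in the second diestrus basal library was 0.907 CPM, with the next at 0.42 CPM, from at most 15 reads. The change between adult and puberty differed between fibroblasts and adipocytes for Aspn (difference of log2 fold changes -2.86, interaction term) and for Ogn (-2.41).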

How the results depend on the processing

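No member's difference changed sign with a call. Of 566 log2 fold changes under other settings, 551 stayed on their side of the threshold, 4 lost and 11 gained a call, and with a library left out 1844 of 1910 stayed, 50 lost and 16 gained one. The number of members called in luminal cells between adult and puberty was 1, and 2 with DESeq2, 2 in the joint fit of all libraries and 4 with no filter. Between stages, where none was called, DESeq2 called 8 in fibroblasts, 4 in adipocytes and 3 in basal cells, the joint fit of 32 adult libraries 5 in fibroblasts and 2 in adipocytes, and fits with no filter 9 in fibroblasts, 6 in basal cells and 3 in luminal cells. The cause was not tested. The 4 lost calls were, between adult and puberty, Lum in fibroblasts (adjusted p = 0.24) and Prelp in basal cells (0.054) in the joint fit and Prelp in adipocytes with the block, and Dcn in pubertal basal against luminal cells with the newer quasi-likelihood method (0.0501). Those gained were of Prelp, Hspg2, Ogn and Fmod.

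Where leaving out a library left 1 in a group, that library was assumed to vary like the other groups. Between stages and between ages, the counts over all genes also moved widely in these fits. They did so as well for pubertal fibroblasts against adipocytes and for pubertal basal against luminal cells. The member counts below therefore cannot be read as particular to the 10 genes. Leaving out each library gave 0 to 4 members called between stages in fibroblasts, 0 to 2 in adipocytes and 0 for basal and luminal cells. Between adult and puberty it gave 1 to 6 in fibroblasts, 0 to 3 in adipocytes, 2 to 6 for basal cells and 1 to 3 for luminal cells, and 1 to 3 for the difference between the stromal cell types. Between pubertal cell types it gave 4 to 9 for fibroblasts against adipocytes, 6 to 7 for basal against luminal cells and 10 for stroma against epithelium. Between adult cell types it gave 8 to 10 for basal against luminal cells, 7 for fibroblasts against adipocytes and 10 for stroma against epithelium.

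Counts over all genes moved more. Between adult and puberty they were 1750 in adipocytes (DESeq2 3181, joint fit 3601) and 1343 in luminal cells (DESeq2 2093, joint fit 2057, no filter 2451). Between stages they were 0 in fibroblasts (DESeq2 2217, joint fit 3202, no filter 3356), 11 in adipocytes (DESeq2 3343, RLE size factors 84, joint fit 3544, newer quasi-likelihood method 25, no filter 243), 3 in basal cells (DESeq2 1023, RLE size factors 1, joint fit 457, no filter 2131) and 38 in luminal cells (DESeq2 551, joint fit 24, no filter 1845). Across stages and ages, libraries with the same replicate number came from different mice, and their correlations across stages were -0.671 to 0.431. With the number as a replicate block, 2 members were called in adipocytes between adult and puberty (Prelp lost its call, adjusted p = 0.056) and 9 in pubertal fibroblasts against adipocytes, where the number is shared mice in part (Hspg2 gained one, 0.021). Genes called with the block were 641 in adipocytes between adult and puberty, and between stages 0 for adipocytes, 0 for basal and 12 for luminal cells. Members at a few reads, such as Aspn, Lum, Fmod and Podn in luminal cells, cannot be compared between ages at this depth.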
